A study of Arabidopsis thaliana with 12 samples.

Results

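The genes described here are 32 nuclear genes of Arabidopsis thaliana whose products work in the light reactions of the chloroplast. They were taken by gene ID, and 10 encode subunits of photosystem II, 12 subunits of photosystem I, 7 the carriers that move electrons onward from photosystem II, and 3 subunits of the chloroplast ATP synthase. All 32 were found among the 27655 genes of the expression table, and all 32 were among the 20881 genes that reached 1 TPM (a unit of transcripts per fixed library total) in at least 3 libraries and were tested. Here TPM divides reads by the annotated gene span, introns included, before scaling each library to the same total. A gene with long introns thus reads lower than one without, and levels and ranks between genes hold on that scale only. In photosystem II they are PSBO1 (AT5G66570), PSBO2 (AT3G50820), PSBP1 (AT1G06680), PSBQ1 (AT4G21280), PSBQ2 (AT4G05180), PSBR (AT1G79040), PSBS (AT1G44575), PSBW (AT2G30570), PSBX (AT2G06520), PSBY (AT1G67740). In photosystem I they are PSAD1 (AT4G02770), PSAD2 (AT1G03130), PSAE1 (AT4G28750), PSAE2 (AT2G20260), PSAF (AT1G31330), PSAG (AT1G55670), PSAH1 (AT3G16140), PSAH2 (AT1G52230), PSAK (AT1G30380), PSAL (AT4G12800), PSAN (AT5G64040), PSAO (AT1G08380). The carriers are PETC (AT4G03280), PETE1 (AT1G76100), PETE2 (AT1G20340), FD2 (AT1G60950), FD1 (AT1G10960), LFNR1 (AT5G66190), LFNR2 (AT1G20020), and the ATP synthase subunits are ATPC1 (AT4G04640), ATPD (AT4G09650), ATPG (AT4G32260). On TAIR10.1 the genes the results turn on lie at chr1:10722183-10723247 (PSAK), chr1:2640803-2641934 (PSAO), chr1:19454798-19455668 (PSAH2), chr1:20802670-20803449 (PSAG), chr2:2587729-2588448 (PSBX), chr5:26450964-26453199 (LFNR1) and chr1:6942625-6945091 (LFNR2).

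RNA was sequenced from material labelled as whole seedlings, aged 3 weeks, kept at 22 °C under a day of 16 h light and 8 h dark. The 12 libraries form 4 groups of 3: the wild type Col, the lines labelled h3.3ko;HTR5 and h3.3ko;HTR5 K4A, and sdg2. The first of the 2 lines is an H3.3 knockout that carries the histone H3.3 gene HTR5 (HTR5 below), and the second carries HTR5 with lysine 4 changed to alanine in the same knockout (K4A below). SDG2 encodes a methyltransferase of lysine 4 of histone H3, so both K4A and sdg2 address what that modification does, with HTR5 and Col as their respective controls. The alleles, the promoter that drives HTR5, the number of lines and whether libraries of a group came from separate plants or pools are not given in the sources used here, so p-values measure the spread between these libraries only.

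Photosystem II takes electrons from water, the cytochrome b6f complex and plastocyanin pass them to photosystem I, and ferredoxin and ferredoxin-NADP reductase use them to make NADPH, while the ATP synthase uses the proton gradient that builds up on the way. The core proteins that bind the pigments are encoded in the chloroplast genome. The subunits described here are encoded in the nucleus, made in the cytosol and imported. Their transcripts are among the most abundant of green tissue, and 22 of the 32 genes were among the 100 genes of highest mean TPM in the table.

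Reads recovered from the TPM values came to 13690625 to 14504608 per library in Col and HTR5 and to 20695807 to 30323886 in K4A and sdg2, so depth parted the libraries as K4A against HTR5 and sdg2 against Col do, and a batch with that split and the genotype cannot be told apart in those comparisons. No gene of the 32 rested on fewer than 86 reads in any library. Library 2 of HTR5 stood apart from libraries 1 and 3 of its group: PSAE2 was at 51.9% and PSAG at 161% of the mean of the other two, and the remaining members lay between these values. The summed share of the members and some other results are given with and without that library, and the rest with all libraries. The seedling label was checked against root genes, of which 6 of 10 (TIP2-3, COBL9, EXPA7, EXPA18, CASP1 and WOX5) were under 1 TPM in every library. All 10 root genes together summed to 78.8 to 96.4 TPM per library. PYK10, PRP3, SHR and SCR, the rest of that list, reached 1 TPM in at least 1 library. Root transcripts were thus low in all 4 groups. Whether the RNA came from whole seedlings with their roots was not tested further.

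Together the 32 genes held less of the transcript pool in K4A and in sdg2 than in their controls. Their summed TPM was 7.28, 7.34 and 7.64% of the total in the Col libraries and 7.58, 6.01 and 7.32% in those of HTR5. It was 3.67, 3.60 and 3.65% in K4A and 3.10, 3.26 and 3.08% in sdg2. The values of K4A and sdg2 lay below those of all 6 control libraries, and those of Col and HTR5 overlapped. K4A held 52.2% (SD 6.29) of the HTR5 mean, or 48.8% with library 2 of HTR5 left out. The share in sdg2 was 42.4% (SD 1.71) of the Col mean, and that in HTR5 was 93.9% (SD 11.6) of the Col mean. Each SD combines the relative spread of the 2 groups compared, n = 3 in each. In bulk RNA, fewer green cells and less RNA per cell cannot be told apart.

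The share lost differed by complex. Photosystem I stood at 38.2% of its HTR5 level in K4A and at 29.5% of its Col level in sdg2. Photosystem II stood at 55.3 and 44.4%, the electron carriers at 70.7 and 56.8%, and the ATP synthase subunits at 86.9 and 86.5%. Without library 2 of HTR5 the K4A values were 36.2, 50.7, 67.0 and 86.7% for photosystem I, photosystem II, the carriers and the ATP synthase. The make-up of the pool moved with it: photosystem I gave 37.6 to 39.7% of the members' TPM in the 6 libraries of Col and HTR5, against 25.5 to 29.4% in K4A and sdg2 libraries. The ATP synthase gave 4.92 to 6.06% in the controls and 8.43 to 10.9% in K4A and sdg2.

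**Figure D1:**
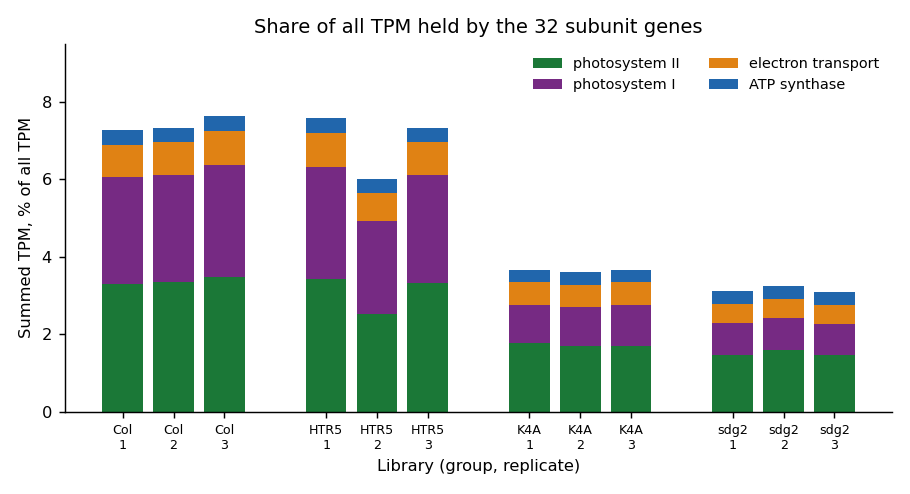
Stacked bars give, for each of the 12 libraries, the summed TPM of the subunit genes as a percent of all TPM, split by complex. The 6 libraries of K4A and sdg2 stand at 3.08 to 3.67% against 6.01 to 7.64% in Col and HTR5, and the photosystem I band shrinks the most.

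By gene, limma on log2(TPM + 1) with Benjamini-Hochberg adjustment over all genes called 28 of the 32 lower and 2 higher in K4A against HTR5, where 26.1% of all tested genes were called lower and 42.5% higher, 68.6% in all. In sdg2 against Col it called 29 lower and 1 higher, where 20.7% of all tested genes were lower and 52.4% higher, 73.2% in all. The median log2 fold change of the 32 was -0.94 in K4A against HTR5, beside 0.14 for all tested genes, and -1.22 in sdg2 against Col, beside 0.31. The median of all genes depends on scaling: with median-of-ratios scaling it was 0.00 and 0.01, higher genes made up 50.7% of all calls in K4A against HTR5 in place of 61.9%, and 50.5% in sdg2 against Col in place of 71.7%. The members' counts were then 29 lower and 1 higher in K4A and 31 lower and 1 higher in sdg2. Quantile normalization, which gives all libraries the same set of values and so the same set of highest levels, left 21 lower and 5 higher with a median of -0.52 in K4A, and 22 lower and 4 higher with a median of -0.76 in sdg2. Without library 2 of HTR5, 28 were lower and 1 higher in K4A, at a median of -1.02. Of the members called lower with all libraries, 20 of 28 in K4A and 22 of 29 in sdg2 were called lower under each of the 23 alternative settings. The minimum of 1.5-fold is not counted among these settings.

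Counts of libraries gave a like split. In 28 members every K4A library lay below every HTR5 library (26.8% of all tested genes), in 1 above (42.1% of all tested genes), and in 3 (PSBY, PSAE2 and ATPG) the groups overlapped. In 30 members every sdg2 library lay below every Col library (22.7% of all tested genes), in LFNR2 above (55.7% of all tested genes), and in ATPG the groups overlapped.

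**Figure D2:**
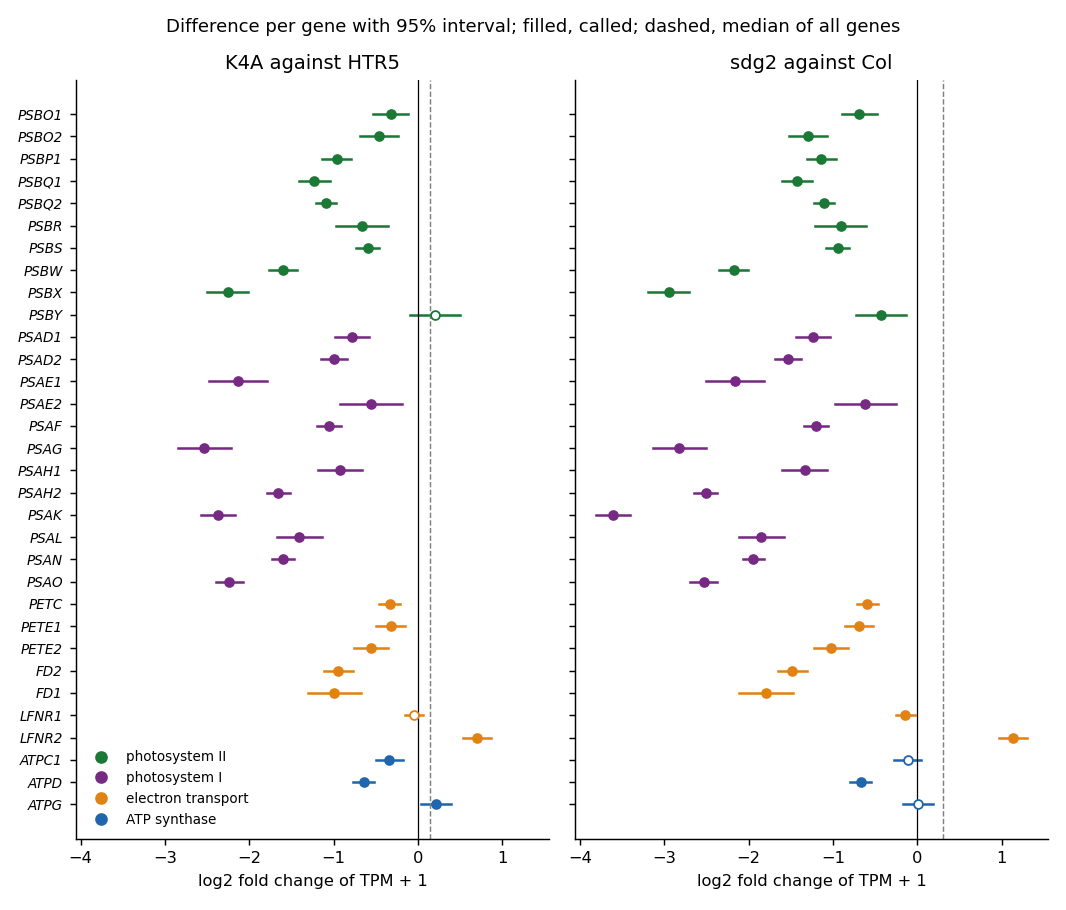
Points give the log2 fold change of TPM + 1 for each subunit gene in K4A against HTR5 (left) and sdg2 against Col (right), with lines for the 95% interval of limma, colours for the complexes, filled points for called genes, and a dashed line for the median of all tested genes (0.14 and 0.31). PSAG (-2.53), PSAK (-2.38), PSBX (-2.26) and PSAO (-2.24) lie furthest to the left in K4A and PSAK (-3.61) and PSBX (-2.95) in sdg2, with the place of PSAG in K4A resting on library 2 of HTR5, and LFNR2 lies to the right of 0 in both, at 0.70 and 1.13.

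The stretches upstream of 6 of these genes are given because the results below turn on them: PSAK, PSAO, PSBX and PSAH2 were among the largest falls, and LFNR1 and LFNR2, copies of the same enzyme, parted from each other. The sequences are from the RefSeq annotation of the TAIR10.1 build, read 5′ to 3′ on the strand of the gene, and end at the base before the annotated start. A window of 250 bases was used, shortened where a neighbouring gene begins within it. They lie at chr1:10721933-10722182 (plus strand) for PSAK, chr1:2641935-2642071 (minus strand) for PSAO, chr2:2588449-2588522 (minus strand) for PSBX, chr1:19454766-19454797 (plus strand) for PSAH2, chr5:26453200-26453275 (minus strand) for LFNR1 and chr1:6942375-6942624 (plus strand) for LFNR2. Capitals mark matches, on either strand, to TATAAA, to the G-box CACGTG, to the I-box GATAAG and to the CCA1-binding letters AAAAATCT or AACAATCT.
PSAK: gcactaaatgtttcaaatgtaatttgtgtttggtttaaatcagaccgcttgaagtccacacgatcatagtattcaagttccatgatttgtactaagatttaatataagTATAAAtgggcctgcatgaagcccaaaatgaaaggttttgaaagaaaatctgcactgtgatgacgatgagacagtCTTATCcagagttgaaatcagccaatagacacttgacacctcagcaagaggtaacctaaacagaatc
PSAO: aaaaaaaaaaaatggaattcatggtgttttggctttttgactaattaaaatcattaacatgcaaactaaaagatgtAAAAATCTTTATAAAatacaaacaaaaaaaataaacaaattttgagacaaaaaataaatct
PSBX: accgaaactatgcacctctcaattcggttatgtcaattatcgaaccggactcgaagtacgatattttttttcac
PSAH2: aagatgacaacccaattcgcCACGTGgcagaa
LFNR1: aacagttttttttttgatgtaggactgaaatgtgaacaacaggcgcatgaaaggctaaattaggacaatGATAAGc
LFNR2: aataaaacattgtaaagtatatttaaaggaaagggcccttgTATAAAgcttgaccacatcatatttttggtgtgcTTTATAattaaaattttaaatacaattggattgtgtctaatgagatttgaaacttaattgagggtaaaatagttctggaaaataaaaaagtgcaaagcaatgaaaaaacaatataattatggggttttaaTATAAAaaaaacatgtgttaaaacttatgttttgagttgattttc

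In these stretches PSAK held 1 I-box and 1 TATAAA, PSAO 1 CCA1-binding match beside 2 overlapping matches to TATAAA, PSAH2 1 G-box, LFNR1 1 I-box and LFNR2 3 matches to TATAAA, while the short PSBX stretch held none of the letters searched. Over the unshortened 250 bases of all 32 genes, the I-box was in 9 (28.1%, against 12.3% of the windows of 27444 annotated genes) and the G-box in 5 (15.6%, against 6.49%). TATAAA was in 16 (50.0%, against 47.4%), GGTTAA in 6 (18.8%, against 14.6%), CCAATC in 4 (12.5%, against 10.2%), the CCA1-binding letters in 3 (9.38%, against 8.38%) and the evening element AAAATATCT in 1 (3.13%, against 2.36%). All were searched on both strands. These are counts of letters, not of bound sites.

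Photosystem II genes fell in 9 of 10 cases in K4A against HTR5 and in 10 of 10 in sdg2 against Col, at medians of -0.82 and -1.12. Of all tested genes, 26.1% were called lower in K4A and 20.7% in sdg2. The largest fall was that of PSBX, a small subunit that spans the membrane. PSBX stood at 4300, 4390 and 4567 TPM in Col and at 4339, 3630 and 4276 TPM in HTR5. It stood at 710.5, 819.6 and 1055 TPM in K4A and at 622, 559 and 536 TPM in sdg2. Neither mutant overlapped its control, and every sdg2 library lay below every K4A library. In limma the log2 fold change was -2.26 (SE 0.11, adjusted p = 8.19e-11) in K4A and -2.95 (SE 0.11, adjusted p = 3.11e-12) in sdg2.

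PSBW, a small subunit that helps hold photosystem II and its antenna together, changed in the same way. Its mean was 3002 ± 92.8 TPM in Col, 2876 ± 342 in HTR5, against 944 ± 65.4 in K4A and 662 ± 19.8 in sdg2 (SD, n = 3), with no overlap between either mutant and its control. The log2 fold change was -1.60 (SE 0.08, adjusted p = 7.43e-11 in limma) in K4A and -2.18 (SE 0.08, adjusted p = 1.73e-12) in sdg2.

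Genes for proteins of the oxygen-evolving complex, which sit on the lumen side and shield the manganese cluster, fell by less than PSBX and PSBW. PSBO1 and PSBO2 encode the manganese-stabilizing protein, PSBP1 and the PSBQ copies the other extrinsic subunits, and PSBR a subunit that helps these bind. The log2 fold changes in K4A and sdg2 were -1.23 and -1.43 for PSBQ1, -1.09 and -1.11 for PSBQ2, -0.97 and -1.14 for PSBP1, and -0.46 and -1.30 for PSBO2, all called. PSBR, the most abundant member at 9095 ± 250.4 TPM in Col (SD, n = 3), was called lower in both, at -0.66 in K4A and -0.91 in sdg2. PSBO1, at 4097, 4176 and 4341 TPM in Col and 2990, 2957 and 3000 TPM in K4A, had the smallest called fall of the complex in K4A, -0.33 (SE 0.10, adjusted p = 0.00813 in limma), and -0.69 (SE 0.10, adjusted p = 1.38e-05) in sdg2. Directions for PSBO1 and PSBR rest on the scaling: under quantile normalization PSBO1 was at 0.55 in K4A and 0.49 in sdg2, and PSBR at 0.19 in K4A and 0.00 in sdg2. Under it the calls of PSBP1 (-0.09 in K4A and -0.03 in sdg2) and of PSBO2 in K4A (-0.15) were lost as well. Without library 1 of HTR5 the adjusted p of PSBO1 in K4A was 0.0521, and without library 2 of HTR5 its fall was -0.47 (adjusted p = 9.98e-07 in limma).

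PSBS, which senses lumen acidity and sets off the heat loss of excess light energy, stood at 1007 ± 15.5 TPM in Col, 913 ± 64.2 in HTR5, against 602 ± 21.6 in K4A and 524 ± 29.5 in sdg2 (SD, n = 3). Its log2 fold change was -0.60 in K4A and -0.94 in sdg2, called in both. PSBY, a small subunit near cytochrome b559, was the exception of the complex. It stood at 1824, 1099 and 1681 TPM in HTR5 and 1908, 1776 and 1508 TPM in K4A, so the groups overlapped and library 2 of HTR5 was the lowest of the 6. Its log2 fold change was 0.20 (SE 0.14, 95% interval -0.10 to 0.50, adjusted p = 0.222 in limma) with all libraries and -0.02 without library 2 of HTR5. Without library 1 of HTR5 it was called higher (0.34, adjusted p = 0.0440), as it was under quantile normalization (0.70). In sdg2, PSBY fell from 1810 ± 97.3 to 1343 ± 80.6 TPM (SD, n = 3), a log2 change of -0.43 (SE 0.14, adjusted p = 0.0126) that read 0.17 under quantile normalization.

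**Figure D3:**
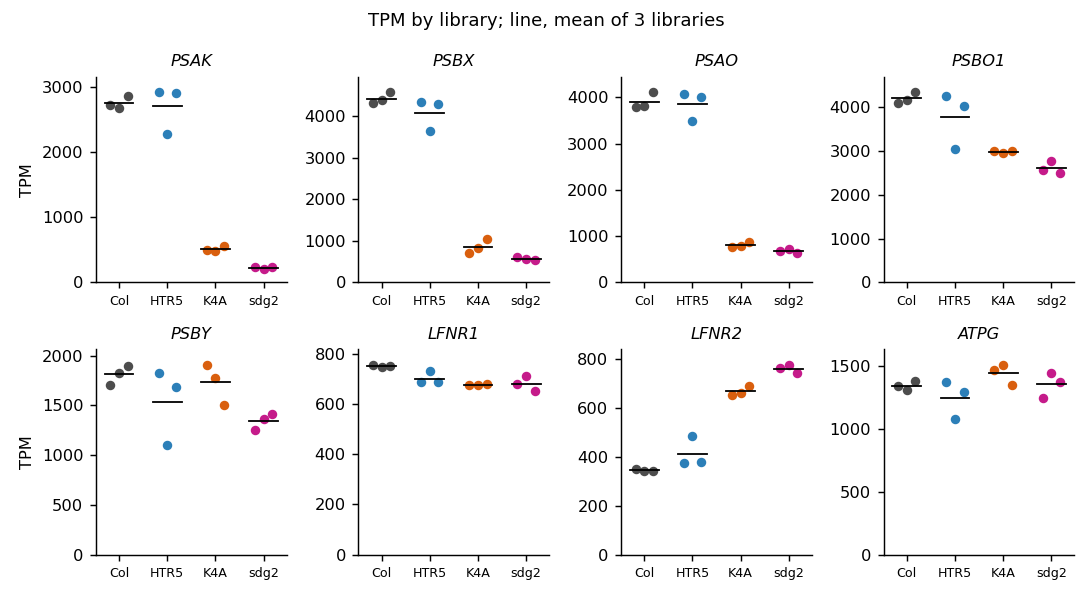
TPM of 8 subunit genes in each library by group, with a line at the mean of 3 libraries. PSAK, PSBX and PSAO are several-fold lower in K4A and sdg2, PSBO1 is lower by less, LFNR2 is higher, and the K4A and HTR5 values of PSBY and ATPG overlap.

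Photosystem I genes fell in 12 of 12 cases in both comparisons, at medians of -1.51 in K4A and -1.90 in sdg2. The share of all tested genes called lower was 26.1% in K4A and 20.7% in sdg2. PSAK, which links the core to its antenna, fell the most in sdg2. It stood at 2716, 2678 and 2863 TPM in Col and 2913, 2275 and 2901 TPM in HTR5. It stood at 504, 484 and 560.5 TPM in K4A and 230.1, 203 and 244 TPM in sdg2. The 3 levels, controls, K4A and sdg2, did not overlap. PSAK was thus 5.19-fold lower in K4A than in HTR5 (log2 fold change -2.38, SE 0.09, adjusted p = 4.89e-12 in limma) and 12.2-fold lower in sdg2 than in Col (-3.61, SE 0.09, adjusted p = 3.72e-14).

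PSAO, PSAL and PSAH lie on the side of photosystem I where light-harvesting complex II docks during state transitions. PSAO stood at 3795, 3817 and 4111 TPM in Col, 4075, 3494 and 4014 TPM in HTR5, against 775, 791 and 880.5 TPM in K4A and 671, 718 and 637 TPM in sdg2. It was 4.72-fold lower in K4A (log2 fold change -2.24, SE 0.08, adjusted p = 7.63e-13 in limma) and 5.78-fold lower in sdg2 (-2.53, SE 0.08, adjusted p = 1.60e-13), with no overlap with the controls. PSAL was called lower, at -1.41 in K4A and -1.85 in sdg2. Of the PSAH copies, PSAH2 was at -1.66 and -2.51 and PSAH1 at -0.93 and -1.34, all called.

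PSAG, a small membrane subunit that stabilizes photosystem I, had the lowest log2 fold change in K4A with all libraries, a place that rested on library 2 of HTR5. Its TPM was 118, 108 and 122 in Col, 115, 182 and 111 in HTR5, against 21.0, 22.9 and 22.2 in K4A and 16.1, 13.1 and 17.9 in sdg2. Neither mutant overlapped its control, and library 2 of HTR5 was the highest of all 12. The log2 fold change was -2.53 (SE 0.15, adjusted p = 5.02e-10 in limma) in K4A, -2.31 without library 2 of HTR5, where PSAK (-2.49), PSBX (-2.34) and PSAO (-2.31) were lower, and -2.82 (SE 0.15, adjusted p = 1.33e-10) in sdg2. Of the annotated span of PSAG, 61.4% is shared with a gene on the opposite strand, AT1G55673. The use of strand in counting is not given in the sources used here, so its level is uncertain, as are those of PSAH1 (49.0% shared), PSAE1 (34.1%) and PSAH2 (19.98%).

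PSAN and PSAF, on the lumen side, help plastocyanin dock. PSAN stood at 2640 ± 58.1 TPM in Col, 2721 ± 26.5 in HTR5, against 895 ± 59.5 in K4A and 686 ± 27.7 in sdg2 (SD, n = 3), a log2 fold change of -1.60 in K4A and -1.94 in sdg2. PSAF was called lower, at -1.06 in K4A and -1.202 in sdg2, although its value in sdg2 was -0.03 under quantile normalization. PSAD and PSAE, on the stromal side, form the docking site of ferredoxin. In K4A and sdg2, PSAD1 was at -0.78 and -1.23 and PSAD2 at -0.999 and -1.53. PSAE1 was at -2.14 and -2.16, and PSAE2 at -0.56 and -0.61, the smallest falls of the complex, all of them called. Under quantile normalization PSAD1 was not called in K4A (-0.11, adjusted p = 0.182) and read -0.28 in sdg2. PSAE2 stood at 775, 402 and 773 TPM in HTR5 and at 428, 415 and 420.4 TPM in K4A. Only library 2 of HTR5 came down to the K4A level, and without it PSAE2 fell by 0.88, while without library 1 or library 3 of HTR5 the adjusted p was 0.0539 or 0.0528.

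Among the electron carriers, 5 of 7 fell and 1 rose in K4A against HTR5, and 6 fell and 1 rose in sdg2 against Col. Over all tested genes, 26.1% were called lower and 42.5% higher in K4A, and 20.7% and 52.4% in sdg2. PETC, the Rieske iron-sulfur protein of the cytochrome b6f complex, stood at 958 ± 41.0 TPM in Col, 911 ± 6.36 in HTR5, against 723 ± 7.10 in K4A and 636 ± 44.6 in sdg2 (SD, n = 3). Its fall was small and its groups did not overlap, at -0.33 (SE 0.06, adjusted p = 0.000111 in limma) in K4A and -0.59 (SE 0.06, adjusted p = 2.29e-07) in sdg2. PETE1 and PETE2 encode plastocyanin, the copper protein that carries electrons to photosystem I. PETE2, the more abundant copy at 3117 ± 117 TPM in Col, was at -0.56 in K4A, where quantile normalization gave 0.18, and at -1.02 in sdg2, where it gave -0.12 with no call. PETE1 was at -0.32 and -0.69, and all 4 changes were called in the reported fit.

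Ferredoxin accepts electrons from photosystem I, and FD2 is its main leaf form in Arabidopsis. FD2 stood at 2190, 2162 and 2300.02 TPM in Col, 2374, 2057 and 2270.2 TPM in HTR5, against 1294, 1075 and 1109 TPM in K4A and 738, 859.8 and 783 TPM in sdg2. The groups were in steps, with controls above K4A and K4A above sdg2 in every library. The log2 fold change of FD2 was -0.95 (SE 0.08, adjusted p = 4.38e-08 in limma) in K4A and -1.48 (SE 0.08, adjusted p = 1.89e-10) in sdg2. FD1, the minor leaf form, was called lower at -0.99 and -1.79.

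Ferredoxin-NADP reductase, which passes electrons from ferredoxin to NADP, has 2 leaf forms that did not move alike. LFNR1 stood at 756, 745 and 749 TPM in Col, 685, 729 and 685 TPM in HTR5, against 674, 674 and 678 TPM in K4A and 679, 709 and 653 TPM in sdg2. K4A lay just below HTR5 and sdg2 just below Col, with no overlap, by log2 changes of -0.05 (SE 0.05, 95% interval -0.16 to 0.06, adjusted p = 0.398 in limma) and -0.14 (SE 0.05, adjusted p = 0.0225). The call in sdg2 was lost when any library but sdg2 library 2 of the compared groups was left out (adjusted p 0.0502 to 0.105), and the values read 0.03 and 0.06 under quantile normalization, against -0.20 in K4A and -0.48 in sdg2 (adjusted p = 2.76e-05), both called lower, with median-of-ratios scaling.

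LFNR2 was the member that rose in both mutants. Its TPM was 350.5, 344 and 344 in Col, 377, 485 and 379 in HTR5, against 653, 662 and 690.4 in K4A and 761.998, 777 and 744 in sdg2. Every library of K4A and sdg2 lay above every control library. The log2 fold change was 0.70 (SE 0.08, adjusted p = 1.05e-06 in limma) in K4A and 1.13 (SE 0.08, adjusted p = 3.52e-09) in sdg2, and LFNR2 was called higher under each of the 23 alternative settings in both comparisons.

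By summed TPM the nuclear subunits of the ATP synthase changed least of the 4 sets, while by the median log2 fold change they stood beside the carriers in K4A (-0.34 and -0.33) and nearer to 0 in sdg2 (-0.12 and -0.69). ATPD, the delta subunit of the stalk, fell from 1031 ± 63.3 TPM in HTR5 to 658 ± 21.1 in K4A and from 1140 ± 16.3 in Col to 717 ± 30.6 in sdg2 (SD, n = 3), log2 changes of -0.65 and -0.67. ATPC1, the gamma subunit that turns within the head, fell in K4A by 0.34 (SE 0.07, adjusted p = 0.000774 in limma), where quantile normalization gave -0.04 with no call. In sdg2 it stood at 1242, 1241 and 1269 TPM against 1360.2, 1371 and 1333 TPM in Col, a log2 change of -0.12 (SE 0.07, 95% interval -0.27 to 0.04, adjusted p = 0.175) with no overlap. That change of ATPC1 was called lower with median-of-ratios scaling, at -0.46, and read 0.27 under quantile normalization.

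ATPG, a subunit of the stator in the membrane, stood at 1369, 1080.4 and 1294 TPM in HTR5 and 1467, 1510.2 and 1346 TPM in K4A, with overlap, and at 1337, 1312 and 1382 TPM in Col and 1249.5, 1443 and 1371 TPM in sdg2, with overlap. It was called higher in K4A, at 0.21 (SE 0.08, adjusted p = 0.0332 in limma). That call was lost without library 2 of HTR5 (0.11, adjusted p = 0.114), without library 1 of K4A (0.20, adjusted p = 0.0834), without library 2 of K4A (0.18, adjusted p = 0.118) and with median-of-ratios scaling (0.06, adjusted p = 0.702). In sdg2 its log2 change was 0.01 (SE 0.08, 95% interval -0.17 to 0.19, adjusted p = 0.926), and -0.33, called lower, with median-of-ratios scaling. Quantile normalization gave 0.63 in K4A and 0.51 in sdg2, both called higher.

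For 8 proteins of the chain the 32 genes include 2 copies, and the share of a copy within its pair does not depend on the factor that scales a library. LFNR1 gave 68.3, 68.4 and 68.5% of its pair in Col, 64.5, 60.0 and 64.4% in HTR5, against 50.8, 50.4 and 49.5% in K4A and 47.1, 47.7 and 46.7% in sdg2. The 4 groups did not overlap, and LFNR2, at 31.6% of the pair in Col, gave 52.8% in sdg2. PSAH1 gave 24.6 ± 0.13% of its pair in Col, 22.4 ± 3.90% in HTR5, against 32.2 ± 0.93% in K4A and 42.4 ± 1.33% in sdg2 (SD, n = 3). PSAE1 moved the other way, from 21.8 ± 1.88% in Col and 28.5 ± 11.3% in HTR5, where library 2 stood at 41.5%, to 11.3 ± 0.998% in K4A and 8.73 ± 2.05% in sdg2. For the PSAH and PSAE copies the overlap with genes on the opposite strand stated above applies.

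The other pairs shifted by less. PSBO1 gave 71.8 ± 0.0993% of its pair in Col and 79.5 ± 0.28% in sdg2, and 71.8 ± 0.48% in HTR5 and 73.7 ± 0.98% in K4A. PSAD1 gave 57.8% in Col and 62.8% in sdg2, PSBQ1 46.1 and 40.7%, PETE1 11.7 and 14.3%, and FD1 26.8 and 22.8%. In sdg2 against Col the groups did not overlap in 8 of 8 pairs and in K4A against HTR5 in 6 of 8, with overlap for PSBQ1 and FD1 that came from library 2 of HTR5. Without that library 8 of 8 pairs parted. HTR5 and Col, both with unchanged lysine 4, did not overlap in 4 of 8 (PSBQ1, PSAD1, FD1 and LFNR1), or 5 of 8 with PSBO1 when that library was left out, and K4A and sdg2 in 4 of 8 (PSBO1, PSAD1, PSAH1 and LFNR1). How often other pairs of genes part in this way was not counted. For levels of single genes, 22.7% of all tested genes lay below and 55.7% above without overlap in sdg2 against Col. These shares were 26.8 and 42.1% in K4A against HTR5, and 8.2 and 16.4% in HTR5 against Col. The exact permutation test, two-sided, cannot go below p = 0.1 for 3 libraries against 3, and over the 32 tests of pairs the smallest Benjamini-Hochberg value was 0.145.

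**Figure D4:**
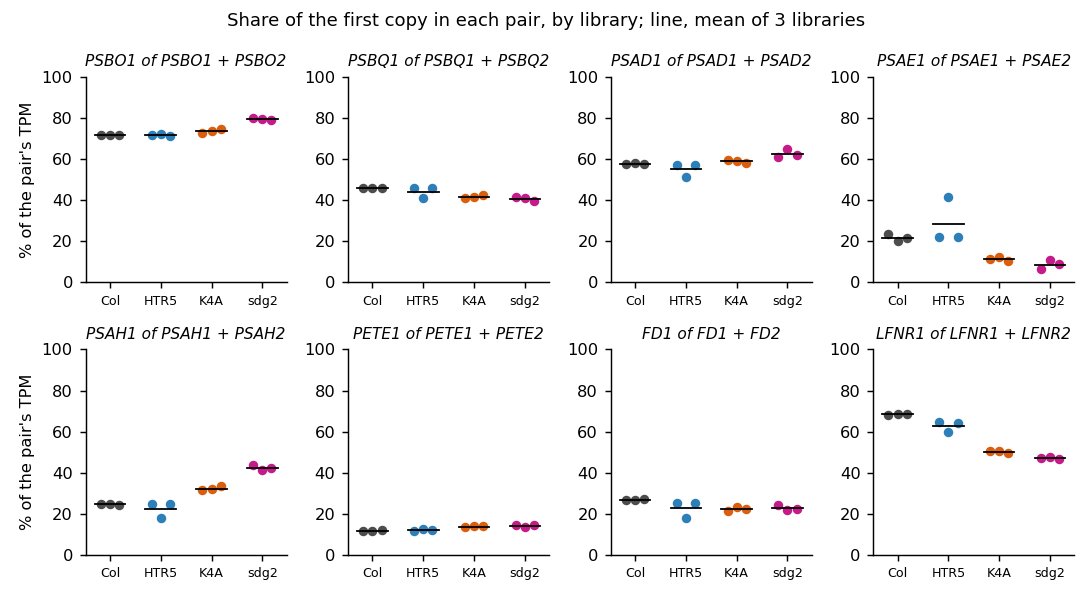
Each panel gives, by library and group, the percent of a pair's summed TPM that the copy named first contributes, with a line at the mean of 3 libraries. LFNR1 drops from 68.4% in Col to 47.2% in sdg2 and PSAH1 rises from 24.6 to 42.4%, while library 2 of HTR5 sets itself apart in the PSAE1, FD1, PSAH1, PSAD1, PSBQ1 and LFNR1 panels.

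Whether the change was as large in K4A as in sdg2 was tested as the difference of effects, K4A against HTR5 minus sdg2 against Col, 2 comparisons that share no library. Across all genes 14.1% were called higher and 26.6% lower in this difference, at a median of -0.16, which was 0.01 with median-of-ratios scaling, where higher genes made up 55.1% of all calls in place of 34.6%. Of the 32 members, 16 were called higher and 1 lower, at a median of 0.34. The median was 0.53, with 18 higher, under median-of-ratios scaling and 0.21, with 12 higher, under quantile normalization. Without library 2 of HTR5 it was 0.24, with 20 higher and 2 lower. Of the 16, each had the larger fall in sdg2 except PSBY, which fell in sdg2 alone by call. PSAK differed by 1.23 on the log2 scale (SE 0.13, adjusted p = 3.94e-06 in limma), PSAH2 by 0.85, PSBO2 by 0.83 and FD1 by 0.80, or by 0.53 for FD1 without library 2 of HTR5. LFNR2 differed by -0.43 (SE 0.11, adjusted p = 0.00603), its rise being larger in sdg2. Across the 32 members the 2 effects correlated at 0.951 (Pearson) and 0.931 (Spearman), or at 0.967 (Pearson) without library 2 of HTR5, and 30 of 32 had the lower value in sdg2 against Col. The points share their libraries, so no p is given.

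**Figure D5:**
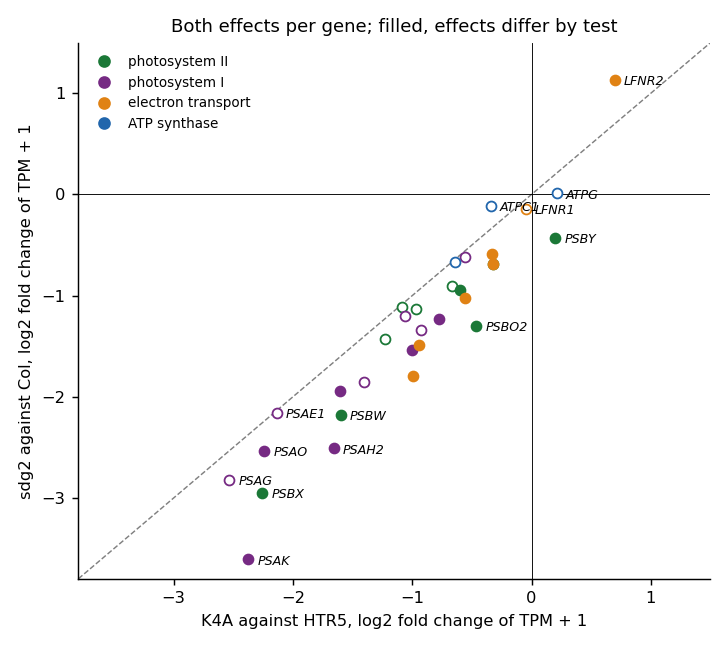
Each point is a subunit gene, with its log2 fold change in K4A against HTR5 on the horizontal axis and in sdg2 against Col on the vertical axis, coloured by complex and filled where the effects differ by test. Points fall below the dashed line of equal effects in 30 of 32 cases, PSAK the furthest at -2.38 and -3.61.

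The mutants were also set side by side, libraries that lie within one range of depth. This is no separate test of the order, since the difference of effects equals K4A against sdg2 less HTR5 against Col in the same libraries. In K4A against sdg2, 18 of the 32 members were called higher and 1 lower, where 20.4% of all tested genes were higher and 29.8% lower, 50.2% in all, and the median was 0.22 beside -0.08 for all genes. PSAK was at 1.19 (SE 0.09, adjusted p = 5.25e-08 in limma) and PSAH2 at 0.86 (SE 0.06, adjusted p = 2.37e-08). ATPC1 was the member called lower, at -0.21 (SE 0.07, adjusted p = 0.0315). That call was lost without library 2 or 3 of K4A or any of the 3 sdg2 libraries, and the count was 4 without library 2 of HTR5. Of the oxygen-evolving subunits, PSBO2 was called higher, at 0.66 (SE 0.11, adjusted p = 8.96e-05). The others were not called, with PSBO1 at 0.19, PSBP1 at 0.05, PSBQ1 at 0.09, PSBQ2 at 0.02 (95% interval -0.10 to 0.14) and PSBR at 0.06 (95% interval -0.25 to 0.37).

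HTR5 against Col, the comparison of unchanged lysine 4 with the wild type, gave 0 calls among the 32 members in limma, where 9.28% of all tested genes were called, 3.78% lower and 5.5% higher. The values ran from -0.30 (FD1) to 0.25 (LFNR2) with a median of -0.11, or 0.00 without library 2 of HTR5 and -0.20 with median-of-ratios scaling. At an unadjusted p under 0.05 there were 3 members, PSBS and ATPD lower and LFNR2 higher, beside 24.6% of all tested genes. The limma-voom alternative, which uses the recovered reads, called 2 members lower. LFNR2, with 95% interval 0.08 to 0.41 and adjusted p = 0.0626, was above Col in 3 of 3 HTR5 libraries. PSBS, PETC, LFNR1 and ATPD were below Col in 3 of 3. Over all tested genes 8.2% had every HTR5 library below every Col library and 16.4% above.

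Genes that act with these subunits were counted from lists of known members. Beside these counts, 26.1% of all tested genes were called lower and 42.5% higher in K4A, and 20.7% and 52.4% in sdg2. Of 18 antenna genes, which encode the light-harvesting proteins, 17 fell and 0 rose in K4A (median -1.03) and 18 fell in sdg2 (median -1.68), with 9 lower and 2 higher in K4A under quantile normalization. LHCB2.3 fell the most, at -3.02 and -4.04. Of 17 Calvin cycle genes, 15 fell and 1, TKL1, rose in both comparisons, at medians of -0.69 and -1.14, and TKL1 (0.29 and 0.36) was not called with median-of-ratios scaling. A list of 16 genes held assembly factors and also PGR5, PGRL1A and PGRL1B, which act in electron flow around photosystem I. Of these 16, 11 fell in K4A, and 9 fell and 2 rose in sdg2, at medians of -0.46 and -0.35. The largest falls were those of PGRL1A (-1.29 in K4A) and PGR5 (-1.64 in sdg2), neither an assembly factor. Of 18 chloroplast-encoded genes of the same complexes, 18 fell in both, at medians of -3.23 and -2.43. Such transcripts carry few poly(A) tails, and they summed to 619 to 1721 TPM in Col and HTR5 and to 88.3 to 120.0 TPM in K4A and sdg2. The 200 genes of highest mean TPM outside these lists were a set chosen after values were seen. In K4A, 38.5% of them were called lower and 88 of 200 higher, at a median of 0.01. In sdg2, 49.5% of them were called lower and 74 of 200 higher, at a median of -0.14.

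Further genes for forms of the same proteins, some of them root forms, followed no common direction. FD4 was under 1 TPM in every library and was not tested. RFNR1 and RFNR2, the root forms of ferredoxin-NADP reductase, rose, at 0.68 and 0.45 on the log2 scale, in K4A. In sdg2, RFNR1 was at 0.47, called higher but not with median-of-ratios scaling, and RFNR2 was called lower at -0.23. ATPC2 was called lower in K4A at -0.75 and not called in sdg2 (0.18, or -0.13 with median-of-ratios scaling), PSBP2 was called lower at -0.32 and -0.57, and FD3, a ferredoxin of roots, was at -0.03 in K4A, or -0.18 and called lower with median-of-ratios scaling, and at -0.75 in sdg2.

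Of 8 regulators of photosynthesis genes, 5 fell and 3 rose in K4A, where 26.1% of all tested genes were called lower and 42.5% higher. In sdg2, 5 fell and 1 rose, where 20.7% of all tested genes were called lower and 52.4% higher. GLK1 and GLK2, transcription factors that activate many genes of the photosystems and antenna, fell in both. GLK1 stood at 287, 287 and 277 TPM in Col and 255, 224 and 254 TPM in HTR5, against 149, 142 and 141 TPM in K4A and 181, 165 and 173 TPM in sdg2, log2 changes of -0.76 in K4A and -0.71 in sdg2. GLK2 was at -1.262 and -1.36, without overlap in either comparison. GNC, a GATA factor of greening, was called lower at -1.39 and -0.84, and PIF4, a phytochrome-interacting factor, at -0.58 and -0.95. CGA1, the GATA factor closest to GNC, went opposite ways, at 0.95 in K4A and -0.81 in sdg2, both called, and HY5, which promotes light responses, rose in K4A at 1.202 and was at -0.05 in sdg2, -0.36 and called lower with median-of-ratios scaling. GUN1, of plastid-to-nucleus signalling, was called lower in K4A at -0.18 and higher in sdg2 at 0.82. PIF3 rose by 0.56 in K4A and was at 0.12 in sdg2, -0.20 and called lower with median-of-ratios scaling.

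Other lists moved with the groups, and their part in the results above was not tested. Of all tested genes, 26.1% were called lower and 42.5% higher in K4A, and 20.7% and 52.4% in sdg2. Transcripts of the 7 evening clock genes summed to 36.1 to 47.7 TPM in Col and HTR5 and to 299 to 564 TPM in K4A and sdg2, and 7 of 7 rose in both comparisons, from GI at 1.32 in K4A to PRR5 at 5.84 in sdg2. Of 7 morning clock genes 6 fell and 1, PRR7, rose in both (in K4A not called with median-of-ratios scaling), with sums of 777 to 1063 TPM in the controls, 654 to 676 in K4A and 336 to 362 in sdg2. The 5 senescence genes, among them SAG13 and WRKY53, rose in both. They summed to 156 to 165 TPM in Col, 87.7 to 106 TPM in HTR5 and 1123 to 1223 TPM in K4A and sdg2. In HTR5 against Col, 2 of the 5 were called lower and 1 higher, so the 2 controls differed. The 4 pollen genes fell in K4A, to sums of 3.64 to 6.27 TPM against 199 to 331 TPM in Col and HTR5 and 308 to 330.2 TPM in sdg2. In sdg2 against Col, 1 of the 4 was called lower and 2 higher. Whether the groups differed in tissue was not tested. None of the listed genes was at 0 in every library.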

How the data were processed

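The authors deposited TPM, 1 value per gene and library, for the 12 libraries. Per the submitters' processing notes, fastp 0.20.1, HISAT2 2.1.10 and DESeq2 1.26.0 were used with the TAIR10 build; the counting tool and the use of strand are not given in the sources used here. TPM multiplied by the gene span of the TAIR10.1 annotation (introns included, 27433 of 27655 genes matched) gave whole reads, within 0.01 of a read, for at least 99.98% of the non-zero values in each library, so the authors divided by that span and levels of genes with long introns are lowered alike in all groups.

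The linear model of limma 3.58.1 (R 4.3.3), with a variance trend in eBayes, was fitted to log2(TPM + 1) for genes with at least 1 TPM in at least 3 libraries, with all 12 libraries in 1 fit, Benjamini-Hochberg adjustment over 20881 genes and a call below 0.05. Fold change on this scale understates the change of low genes. Shares within pairs of copies were compared with exact permutation tests. Intervals are 95% intervals of the fit. Alternatives were pseudocounts of 0.1 and 0.5, no filter, a mean TPM of at least 5, other scalings, array weights, limma-voom on recovered reads, a replicate block, each comparison fitted on its own groups, a minimum of 1.5-fold, and each library left out in turn. The fit was tested on simulated data.

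The members, lists, motifs and alternatives were chosen with earlier results of these data known. The text may name any member, further form of the same proteins or regulator, and of each other list the largest rise and fall among called genes. Replicate numbers were not taken as pairs: deviations of the 18 same-numbered pairs of libraries correlated at -0.14 to 0.07. The heading of 1 sdg2 column names counts, but its values add up like the other TPM columns and were read as TPM.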

Additional observations from a re-analysis of the deposited data

Results flagged for a closer look

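For 17 of the 32 subunit genes the effect in K4A against HTR5 differed from that in sdg2 against Col by the test of the difference itself, in limma at an adjusted p under 0.05, where 40.7% of all tested genes did. The difference, K4A effect minus sdg2 effect on the log2 scale, was 1.23 for PSAK, 0.85 for PSAH2, 0.54 for PSAD2, 0.46 for PSAD1, 0.34 for PSAN and 0.29 for PSAO in photosystem I. In photosystem II it was 0.83 for PSBO2, 0.69 for PSBX, 0.63 for PSBY, 0.58 for PSBW and 0.34 for PSBS. Among the electron carriers it was 0.80 for FD1, 0.54 for FD2, 0.46 for PETE2, 0.37 for PETE1, 0.26 for PETC and -0.43 for LFNR2. Of the ATP synthase subunits none was called, with 95% intervals of -0.45 to 0.00 for ATPC1, -0.15 to 0.20 for ATPD and -0.05 to 0.46 for ATPG. Of the 16 positive differences 9 were called under each of the 22 alternatives, as was that of LFNR2. The minimum of 1.5-fold, which fewer passed, is not counted among these alternatives. With 1 library left out, the call was lost for PSAO in 7 of 12 cases (adjusted p 0.0527 to 0.106), and for PSBY, PETC and PETE1 without library 3 of Col, for PSBY also without library 1 of K4A or sdg2, and for PETC also without library 2 of K4A or library 3 of sdg2.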

How the results depend on the processing

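Relative to the values given, K4A against HTR5 called 1 member higher with no filter, median-of-ratios scaling, rescaling outside the photosynthesis lists or limma-voom. It also called 1 higher with the compared groups alone and at 1.5-fold or more. Quantile normalization called 5 higher (PSBO1, PSBY, PETE2, LFNR2 and ATPG). The sign turned there for PSBO1 (0.55), PSBR (0.19), PETE2 (0.18) and LFNR1 (0.0345), with PSBR and LFNR1 not called. In sdg2 against Col, quantile normalization called 4 higher (PSBO1, LFNR2, ATPC1 and ATPG). The sign turned there for PSBO1 (0.49), PSBY (0.17), LFNR1 (0.0643) and ATPC1 (0.27), with PSBY and LFNR1 not called. ATPG in sdg2 read -0.33 with median-of-ratios scaling, -0.24 with rescaling, -0.00596 with array weights and -0.34 with limma-voom. The summed share of sdg2 in Col was 40.2% by recovered reads and 39.6% with the 10 highest other genes left out of the total.

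HTR5 against Col gave 1 call, higher, with rescaling, 3 calls (2 lower, 1 higher) with array weights and 2 lower with limma-voom. In K4A against sdg2 the count called lower was 0 with no filter, median-of-ratios scaling, limma-voom and at 1.5-fold or more (3 higher there, 3 in all), 3 with quantile normalization and with the compared groups alone, and 4 with array weights. In the difference of effects it was 2 with array weights and 0 at 1.5-fold or more, with 6 higher and 6 in all. The compared groups alone could not be fitted for that difference, which needs all groups. The cause of these shifts was not tested. By design, the minimum of 1.5-fold is a stricter threshold and quantile normalization imposes a shared set of values.

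With each library left out in turn, members called higher ranged from 1 to 3 in K4A against HTR5 and from 0 to 1 in HTR5 against Col, as did all its calls, where the median ran from -0.16 to 0.000416. Members called lower ranged from 0 to 4 in K4A against sdg2 and from 1 to 2 in the difference of effects. PSBY in K4A ran from -0.0239 to 0.34 and ATPG in sdg2 from -0.0377 to 0.0660. In percentage points, the PSBO1 share in HTR5 against Col ran from -0.22 to 0.24, that of PSAH1 from -3.36 to 0.0466, that of FD1 from -3.20 to 0.49 in K4A against HTR5 and from -1.10 to 0.15 in K4A against sdg2.

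With the replicate number as a block the counts were 28 lower and 2 higher for K4A against HTR5, 29 and 1 for sdg2 against Col, 0 and 0 for HTR5 against Col, 1 and 17 for K4A against sdg2, where PSAF lost its call (adjusted p = 0.0507), and 1 and 15 for the difference of effects, where PSAO lost its call (adjusted p = 0.0508). Depth differed between the groups compared, and its part in the results was not tested.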
